A study of Oryza sativa with 6 samples.

Results

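Aux/IAA repressors and auxin response factors (ARFs), the transcriptional core of the auxin pathway, were followed in stem bases of the rice mutant *crl1* and of its wild type (WT). Members were all genes that the rice gene annotation names IAA or ARF with a number, with any Os prefix dropped, and that a probe set of the array is paired with alone. They came to 43 genes, 26 Aux/IAA and 17 ARF, of 17905 genes with such a probe set. The arrays were 3 of *crl1* and 3 of WT, numbered 1 to 3 in each genotype, and an array number stands for 1 biological replicate. Both genotypes are of the cultivar Taichung 65 and were grown upright on sterile agar medium at 26 °C with 12 h of light and 12 h of dark, without added auxin, and each sample was a pool of stem bases of 7-day-old seedlings. *crl1* (*crown rootless1*) makes no crown roots, so a *crl1* stem base also differs from a WT one in the organs it holds, and the mutant is represented by a single line. The values are MAS5 signals, a linear brightness per probe set with every array scaled to a target of 100.

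Auxin acts on transcription through a short chain of proteins. Aux/IAA proteins bind ARFs, which sit on auxin response elements of promoters, and recruit corepressors that silence the gene. When auxin binds the receptors of the TIR1/AFB family, the Aux/IAA proteins are marked for destruction and the ARFs are released. Many Aux/IAA genes are themselves switched on by auxin, which makes their transcripts a common readout of the hormone, and *CRL1*, an auxin-induced LOB-domain transcription factor, lies downstream of this chain in crown root initiation.

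The annotation names 28 Aux/IAA and 23 ARF genes. *IAA11*, *IAA29*, *ARF5*, *ARF6*, *ARF8*, *ARF19*, *ARF21* and *ARF25* were paired with no probe set of their own and were not analysed here, and neither was *CRL1* itself. The study lists *IAA11* as up-regulated in *crl1*, which could not be looked at with the probe table used here. The 43 remaining genes have 54 probe sets, and each gene is given by its brightest one. A probe set was tested where its geometric mean signal over the 6 arrays was at least 20, which kept 20 Aux/IAA and 16 ARF genes, 36 in all. The genes that stayed below were *IAA4*, *IAA8*, *IAA9*, *IAA16*, *IAA20*, *IAA26* and *ARF13*, with geometric means between 1.39 for *IAA16* and 15.9 for *IAA8*. No array gave *ARF13* more than 13.8, or any of these Aux/IAA genes more than 28.6. *IAA4*, an early auxin-responsive gene, had signals of 25.3, 12.1 and 12.5 in *crl1* replicates 1 to 3, against 8.8, 17.3 and 13.7 in WT. The 2 genotypes overlapped, and their order changed between replicates.

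Among the tested genes the geometric mean signal ran over a wide range in the Aux/IAA family, between 50.8 for *IAA14* and 4058 for *IAA17*, with a median of 306. In the ARF family it lay between 84.6 for *ARF10* and 878 for *ARF12*, with a median of 411. The median of all 25045 tested probe sets was 128. Probe sets differ in how well they bind, so these signals were not used to rank one gene above another. The plot of signals shows both families by array.

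**Figure D1:**
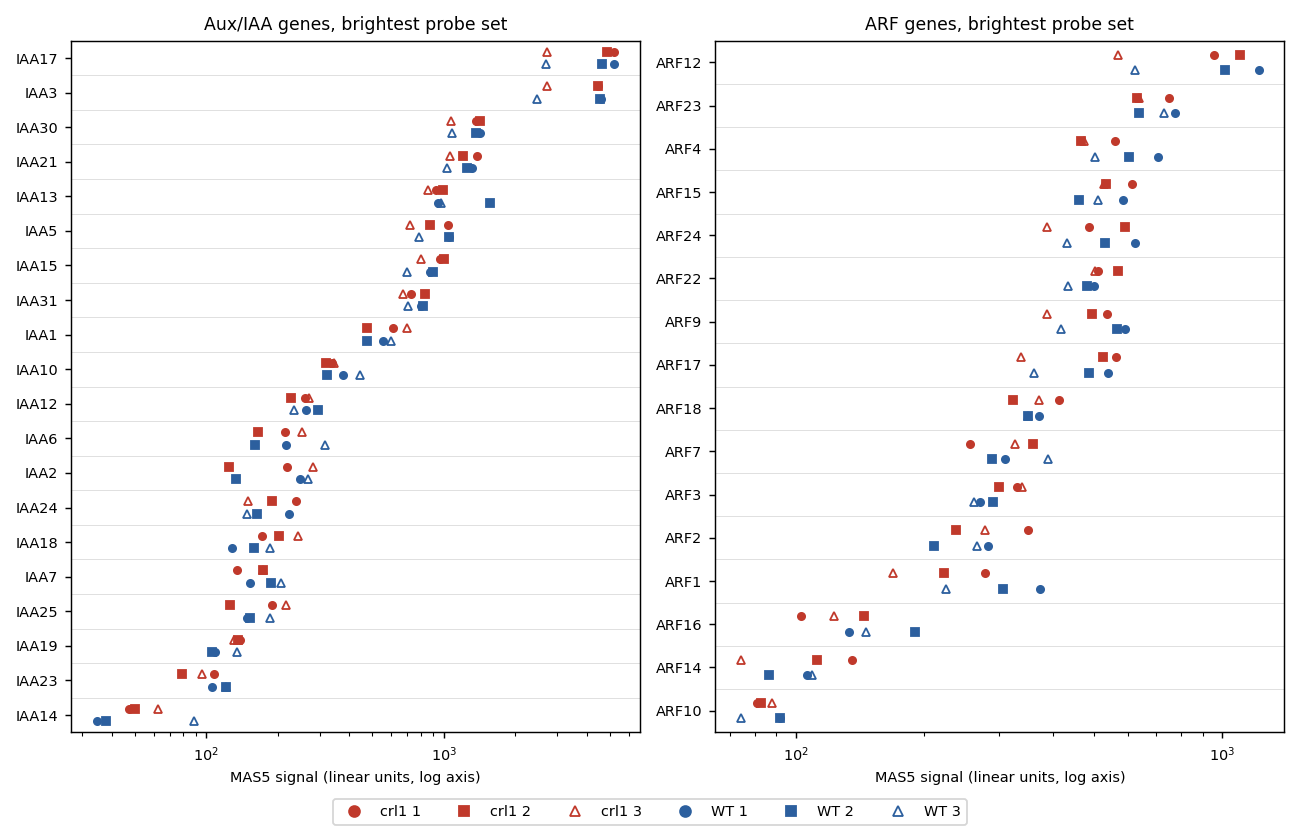
MAS5 signal of the brightest probe set of each tested Aux/IAA gene (left) and ARF gene (right) on a log axis, with *crl1* above WT in each row, 1 symbol per array and open triangles for replicate 3. In most rows the *crl1* and WT points overlap, and in the brightest rows, *IAA17* and *IAA3*, the open triangles of both genotypes lie to the left of the other points.

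The first comparison asked which of these genes differ between *crl1* and WT. None of the 36 passed the threshold in limma at an adjusted p of 0.05, 0 of 20 Aux/IAA and 0 of 16 ARF genes. Of all tested probe sets, 0.204% were called higher and 0.447% lower in *crl1*. The Aux/IAA genes *IAA13* and *IAA18* and the ARF genes *ARF1*, *ARF4* and *ARF16*, 5 of 36, had an unadjusted limma p under 0.05, and so did 9.76% of all tested probe sets. The log2 fold changes of *crl1* over WT lay between -0.31 and 0.39 for Aux/IAA genes (median 0.01, 11 positive and 9 negative) and between -0.44 and 0.24 for ARF genes (median -0.05, 7 positive and 9 negative). Their median size without the sign was 0.114 and 0.12, beside 0.125 over all tested probe sets. The 95% intervals of all 36 genes, each taken singly, lay inside a 2-fold change in either direction, the lowest bound being -0.67 for *IAA23* and the highest 0.65 for *IAA14*. No member passed a *crl1* to WT ratio above 2 or below 0.5 in all 3 replicates. In pooled tissue such as this, fewer cells of a type and less RNA per cell cannot be told apart.

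**Figure D2:**
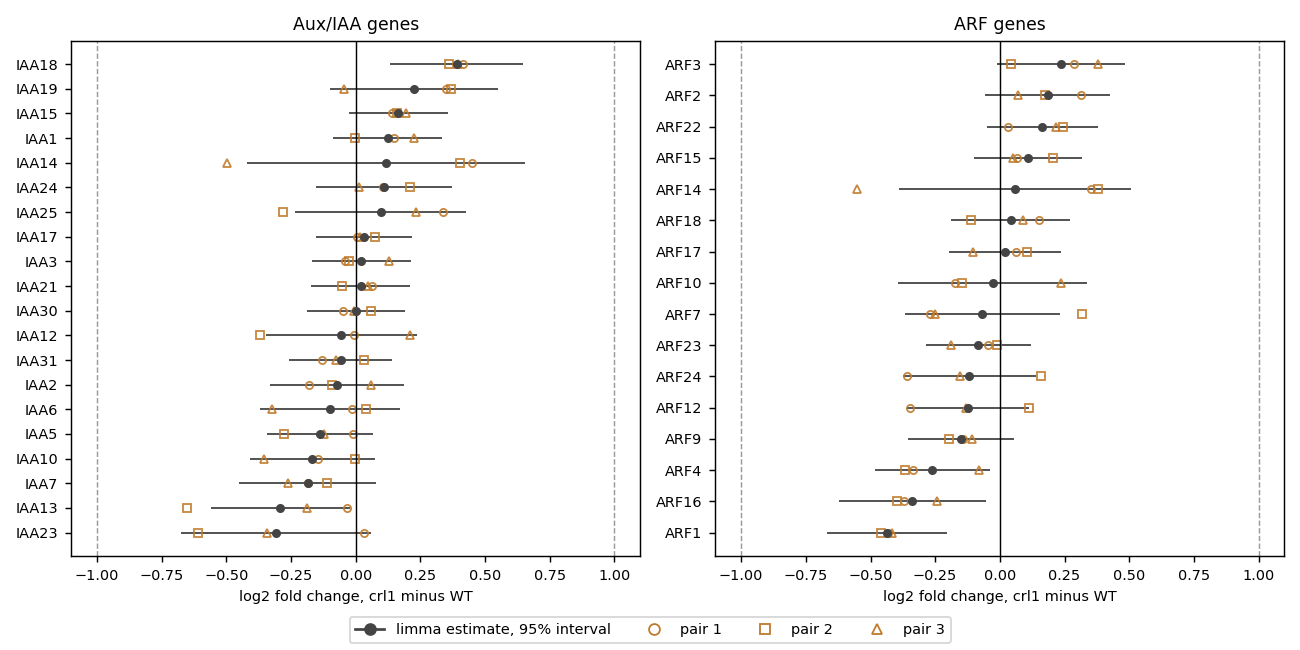
Log2 fold change of *crl1* over WT for each tested Aux/IAA gene (left) and ARF gene (right), with the limma estimate and its 95% interval in grey, the ratio of each same-numbered pair of arrays as open symbols and dashed lines at a 2-fold change. *IAA18* is at the top left with 0.39 and *ARF1* at the bottom right with -0.44, and every interval ends inside the dashed lines.

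Same-numbered arrays gave the direction replicate by replicate. *crl1* was above WT in all 3 replicates for *IAA15*, *IAA17*, *IAA18*, *IAA24*, *ARF2*, *ARF3*, *ARF15* and *ARF22*, 8 of 36 genes, where 16% of all tested probe sets did so. It was below WT in all 3 for *IAA5*, *IAA7*, *IAA10*, *IAA13*, *ARF1*, *ARF4*, *ARF9*, *ARF16* and *ARF23*, 9 of 36 genes, where the share of all tested probe sets was 15.2%. Some of these differences were very small: the ratios of *IAA17* were 1.004, 1.053 and 1.010, and that of *IAA10* in replicate 2 was 0.998. The other tested probe sets of *ARF2*, *ARF4* and *ARF23* did not keep the same direction in all 3 replicates. Every *crl1* array lay above every WT array for *ARF3* and *ARF22*, 2 of 36 genes, beside 3.65% of all tested probe sets. Every *crl1* array lay below every WT array for 0 of 36 genes, beside 3.64%.

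*IAA18* (chromosome 5) had the highest fold change of the Aux/IAA family. Its signals were 170.9, 203.1 and 242.8 in *crl1* replicates 1 to 3, against 128.3, 158.1 and 184.7 in WT. *crl1* was above WT by a similar ratio each time, 1.33, 1.28 and 1.31, while both genotypes were lowest in replicate 1 and highest in replicate 3, so that the groups overlapped. The log2 fold change was 0.39 ± 0.11 (SE, n = 3 pairs), with an unadjusted limma p of 0.00753 that became an adjusted p of 0.26 over all tested probe sets.

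*IAA13* (chromosome 3), a stabilising mutation of which gives rice few lateral roots, had signals of 925.6, 993.3 and 855.0 in *crl1*, against 947.9, 1561 and 973.7 in WT. WT replicate 2 stood above the other 5 arrays, and in replicate 1 the genotypes differed by a ratio of 0.976. A log2 fold change of -0.29 ± 0.12 (SE, limma adjusted p = 0.471) resulted, and without replicate 2 it was -0.11.

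*IAA23* acts in the upkeep of the quiescent centre of rice roots. Its brightest probe set, of a type that may cross-hybridise, had signals of 108.0, 79.2 and 95.7 in *crl1*, against 105.7, 120.9 and 121.3 in WT. *crl1* was the lower genotype in replicates 2 and 3 and level with WT in replicate 1. With -0.31 ± 0.16 (SE) the gene had the lowest log2 fold change of the family, at an unadjusted limma p of 0.0912 and an adjusted p of 0.604, and the other tested probe set of the gene gave -0.14.

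*IAA14*, *IAA24* and *IAA31* are Aux/IAA genes that the study's text discusses. The study lists *IAA14* as down-regulated and *IAA24* as up-regulated in *crl1*. Its rule asked for a ratio past 2-fold in all 3 replicates, with a Present call and a change p that were not computed here. In the deposited signals of the probe sets used here, neither gene passed that ratio in all 3 replicates. *IAA14* had signals of 47.3, 50.1 and 62.6 in *crl1*, against 34.6, 37.9 and 88.4 in WT. *crl1* was above WT in replicates 1 and 2 and below it in replicate 3, where the WT array stood highest of all 6. The log2 fold change of 0.12 ± 0.24 (SE, limma adjusted p = 0.93) had the widest error of both families. It was 0.43 without replicate 3, and -0.05 and -0.02 without replicates 1 and 2.

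*IAA24* (chromosome 7) had signals of 238.8, 188.1 and 149.1 in *crl1*, against 221.9, 162.7 and 147.9 in WT. *crl1* was the higher genotype in all 3 replicates, by ratios between 1.01 and 1.16, which is less than the spread among replicates of either genotype. Its log2 fold change was 0.11 ± 0.12 (SE, limma adjusted p = 0.83).

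*IAA31* (chromosome 12), a stabilised form of which lowers the number of crown roots in rice, had signals of 728.4, 835.8 and 671.0 in *crl1*, against 797.4, 816.5 and 706.7 in WT. Its log2 fold change was -0.06 ± 0.09 (SE, limma adjusted p = 0.897), with overlapping genotypes. *IAA30*, the gene next to it in the reference annotation (assembly ASM3414082v1), had signals of 1369, 1422 and 1077 in *crl1*, against 1418, 1364 and 1080 in WT. The genotypes of *IAA30* were level, with a log2 fold change of 0.00 ± 0.08 (SE), and both neighbours were lowest in replicate 3 of both genotypes.

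Among the ARFs, the rice proteins *ARF12*, *ARF16* and *ARF17* belong to the class with a glutamine-rich middle region, counted as activators, while the other tested ARFs belong to the class counted as repressors. *ARF1* (chromosome 1) had signals of 276.8, 222.7 and 168.5 in *crl1*, against 373.2, 306.2 and 225.3 in WT. *crl1* was lower in each replicate, by ratios of 0.742, 0.727 and 0.748, while both genotypes were highest in replicate 1 and lowest in replicate 3, so that the 3 *crl1* and 3 WT values overlapped. The log2 fold change of -0.44 ± 0.10 (SE, 95% interval -0.67 to -0.20) was the largest in size of both families, with an unadjusted limma p of 0.00211 and an adjusted p of 0.136. Without the replicate block the unadjusted p was 0.111.

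The annotation gives the name ARF16 to 2 genes, the one called *ARF1* here and *ARF16* on chromosome 6. The study's text discusses an ARF16 that binds the *CRL1* promoter in vitro, and the sources used here do not settle which gene is meant. *ARF16* of chromosome 6, a phosphate-response regulator in rice, had signals of 102.7, 144.5 and 123.0 in *crl1*, against 132.8, 190.6 and 145.6 in WT. *crl1* was the lower genotype in all 3 replicates, with replicate 2 highest in both. Its log2 fold change was -0.34 ± 0.13 (SE), with an unadjusted limma p of 0.0252 and an adjusted p of 0.417.

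*ARF4* (chromosome 1), a regulator of grain size, has a pair of tested probe sets. The brighter had signals of 559.7, 467.1 and 474.7 in *crl1*, against 705.6, 602.3 and 502.4 in WT, a log2 fold change of -0.26 ± 0.10 (SE), with an unadjusted limma p of 0.0256 and an adjusted p of 0.421. The other had signals of 580.3, 491.4 and 517.2 in *crl1*, against 565.7, 528.2 and 542.2 in WT, a log2 fold change of -0.05 ± 0.09 (SE). The probe sets are nearly as bright as each other, and *crl1* was lower in all 3 replicates in the first and in replicates 2 and 3 in the second. The mean over both was -0.15, with an unadjusted limma p of 0.123.

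*ARF3* and *ARF22* were the members with no overlap between genotypes. *ARF3* had signals of 330.2, 299.1 and 339.3 in *crl1*, against 270.5, 290.0 and 261.0 in WT, a log2 fold change of 0.24 ± 0.11 (SE, limma adjusted p = 0.533). *ARF22* had signals of 511.7, 569.8 and 503.5 in *crl1*, against 500.1, 481.4 and 433.5 in WT, a log2 fold change of 0.16 ± 0.10 (SE, limma adjusted p = 0.645). In both genes the gap between the nearest *crl1* and WT arrays was small, 299.1 against 290.0 in *ARF3* and 503.5 against 500.1 in *ARF22*.

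Small RNAs split the ARFs into further groups, which were looked at after their values were seen. *ARF2*, *ARF3*, *ARF14* and *ARF15*, the relatives of Arabidopsis ETTIN that tasiR-ARF small RNAs target, had log2 fold changes of 0.19, 0.24, 0.06 and 0.11. The other tested probe set of *ARF2* gave -0.07, with *crl1* to WT ratios of 0.892, 0.718 and 1.355 in the replicates. *ARF10*, *ARF18* and *ARF22*, targets of the microRNA miR160, had log2 fold changes of -0.03, 0.04 and 0.16, and *ARF12* and *ARF17*, targets of miR167, had -0.12 and 0.02. None of these genes had an unadjusted limma p under 0.05.

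*ARF23* and *ARF24*, though of the class counted as repressors, activate a rice formin gene that shapes the actin cytoskeleton. *ARF23* had signals of 748.4, 631.3 and 637.6 in *crl1*, against 773.1, 636.7 and 727.5 in WT, and the genotypes were close in replicates 1 and 2. Its log2 fold change was -0.08 ± 0.09 (SE) in the brighter probe set and -0.17 ± 0.13 in the other, which may cross-hybridise. *ARF24* had a log2 fold change of -0.12 ± 0.11 (SE), with *crl1* above WT in replicate 2 only.

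The second comparison asked how the members varied between replicates, since each replicate number holds 1 *crl1* and 1 WT array and the 2 genotypes repeat the difference. By the F-test of the replicate number in the same limma fit, 12 of 36 genes passed an adjusted p of 0.05, where 21.4% of all tested probe sets did. That share rose with signal. It was 6.99% for signals of 20 to 50, where no member lies, and higher in each brighter range, so 21.4% is a low yardstick for these genes. They were the Aux/IAA genes *IAA1*, *IAA2*, *IAA3*, *IAA5*, *IAA6*, *IAA17*, *IAA24* and *IAA30*, 8 of 20, and the ARF genes *ARF1*, *ARF9*, *ARF12* and *ARF17*, 4 of 16. None of the 36 was called between genotypes in the same fit. These counts rest on replicate 3 and on the variance model: without replicate 3 they were 1 and 0, and without the mean-variance trend 2 and 0. With each array set to the same distribution by quantile normalization, 4 Aux/IAA genes passed.

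Replicate 3 was the lowest in both genotypes for *IAA3*, *IAA5*, *IAA15*, *IAA17*, *IAA21*, *IAA24*, *IAA30* and *IAA31* and for *ARF1*, *ARF9*, *ARF12*, *ARF17*, *ARF22* and *ARF24*, 14 of 36 genes, where 28.7% of all tested probe sets were. It was the highest in both genotypes for *IAA1*, *IAA2*, *IAA6*, *IAA10*, *IAA14*, *IAA18* and *IAA25*, 7 of 20 Aux/IAA genes and 0 of 16 ARF genes, where the share of all tested probe sets was 23.9%. Replicate 2 was the lowest in both genotypes for *IAA1*, *IAA2*, *IAA6*, *IAA10*, *ARF2*, *ARF18* and *ARF23*, 7 of 36 genes, beside 16.5% of all tested probe sets.

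**Figure D3:**
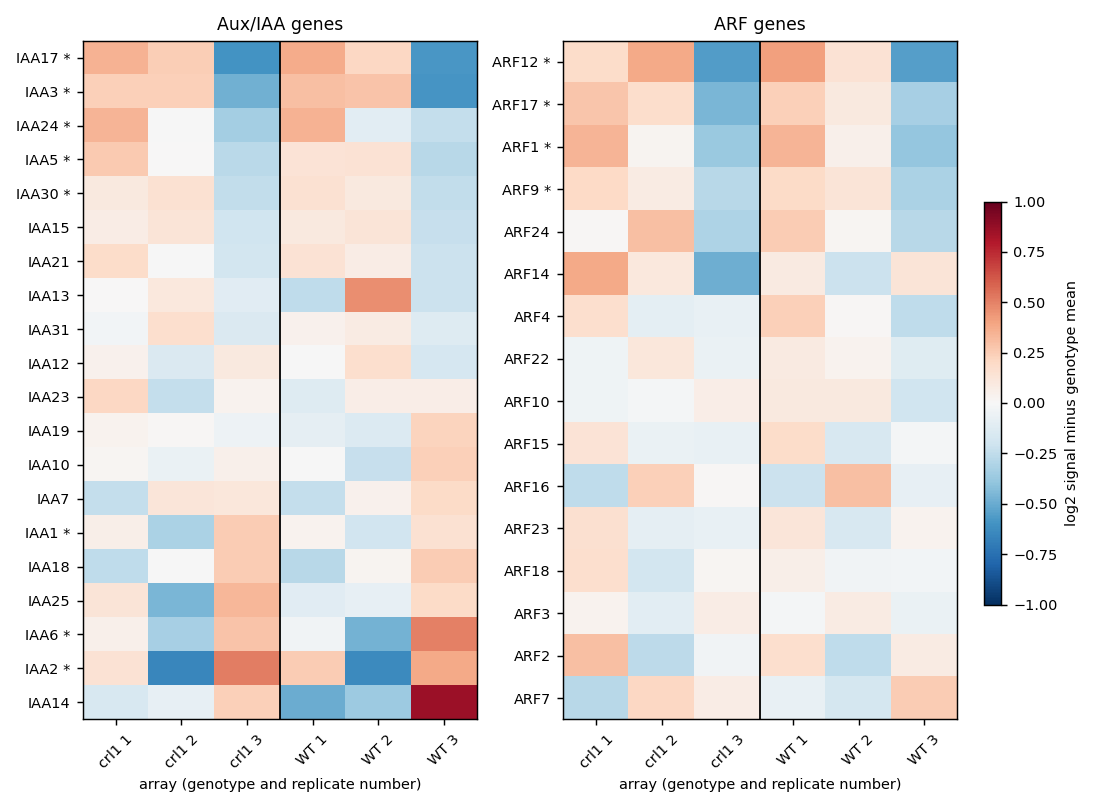
Log2 signal of each tested Aux/IAA gene (left) and ARF gene (right) minus the mean of its genotype, by array, with the *crl1* arrays left of the WT arrays and an asterisk after genes changed with replicate number (limma F-test, adjusted p under 0.05). Genes are ordered by replicate 3: *IAA17* and *IAA3* at the top left are low in replicate 3 of both genotypes, *IAA14* and *IAA2* at the bottom are high there, and the ARF panel opens with *ARF12*, *ARF17* and *ARF1*.

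*IAA2* (chromosome 1) had signals of 217.9, 125.0 and 280.0 in *crl1*, against 247.2, 133.4 and 268.7 in WT. Both genotypes were lowest in replicate 2 and highest in replicate 3, and they differed little within a replicate (log2 fold change -0.07 ± 0.12, SE). Replicate 2 was below the mean of replicates 1 and 3 by a log2 difference of -0.98 in *crl1* and -0.95 in WT, and the replicate number had a limma adjusted p of 0.00168. *IAA6*, a regulator of drought tolerance in rice, had the same order, with signals of 214.9, 165.3 and 253.0 in *crl1* and 217.1, 160.8 and 316.3 in WT (adjusted p of 0.0127 for replicate number).

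*IAA1* shared that order of replicates as well, with signals of 612.6, 472.3 and 701.9 in *crl1* and 553.4, 472.9 and 600.5 in WT. Its adjusted p for replicate number was 0.0439 in limma, and it did not pass with quantile normalization or median centring. *IAA2* and *IAA6* passed under both of these scalings. Without replicate 2 none of these genes passed, with adjusted p of 0.272 for *IAA1*, 0.187 for *IAA2* and 0.0566 for *IAA6* (limma F-test). Without replicate 3 *IAA2* passed at 0.0465, while *IAA1* and *IAA6* did not (0.493 and 0.416).

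*ARF12* (chromosome 4), which takes part in root elongation in rice, had signals of 953.8, 1097 and 570.1 in *crl1*, against 1215, 1014 and 624.4 in WT. Replicate 3 was the lowest of each genotype, by a log2 difference of -0.84 in *crl1* and -0.83 in WT from the mean of replicates 1 and 2, and the order of the genotypes changed between replicates. The adjusted p for replicate number was 0.0024 in limma, and 0.00325 with quantile normalization. *ARF17* (chromosome 6) had signals of 561.6, 523.8 and 336.7 in *crl1*, against 538.0, 486.6 and 361.8 in WT, with replicate 3 again lowest in both (adjusted p of 0.00824 for replicate number). Replicate 3 differed by a log2 difference of -0.69 in *crl1* and -0.50 in WT.

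*ARF1* and *ARF9* were lower in replicate 3 as well. *ARF1*, whose signals are given above, changed by a log2 difference of -0.56 in *crl1* and -0.59 in WT (limma adjusted p of 0.00978 for replicate number), beside its log2 fold change of -0.44 between genotypes. *ARF9* had signals of 536.4, 494.2 and 386.9 in *crl1*, against 591.9, 566.8 and 417.4 in WT, and *crl1* was the lower genotype in each replicate (log2 fold change -0.15 ± 0.09, SE). Its log2 difference of replicate 3 was -0.41 in *crl1* and -0.47 in WT.

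The brightest Aux/IAA genes were low in replicate 3. *IAA17* (chromosome 5), whose probe set may also bind other transcripts, had signals of 5223, 4874 and 2713 in *crl1*, against 5204, 4628 and 2685 in WT. *IAA3* (chromosome 1) had signals of 4474, 4468 and 2711 in *crl1*, against 4600, 4548 and 2477 in WT. In both genes the genotypes were level within each replicate, with log2 fold changes of 0.03 ± 0.08 and 0.02 ± 0.09 (SE), and replicate 3 was lower by a log2 difference between -0.72 and -0.90.

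Replicate 3 was low for bright probe sets in general. Its highest signal was 5761 in *crl1* and 5201 in WT, against 18060 and 18869 in the other *crl1* arrays and 16698 and 15946 in the other WT arrays. Of the 723 probe sets whose signal averaged 2000 or more (geometric mean), which include *IAA3* and *IAA17*, 97.0% were lower in replicate 3, with a median log2 difference of -0.58 in *crl1* and -0.65 in WT. Of the same 723 probe sets, 79.3% changed with replicate number. With quantile normalization the adjusted p for replicate number was 0.243 for *IAA3* and 0.117 for *IAA17*, and neither passed. *IAA30* lies in the range of 1000 to 2000, where the median log2 difference over both genotypes was -0.15 and that of *IAA30* was -0.37 in *crl1* and -0.36 in WT, and it did not pass with quantile normalization either (adjusted p = 0.0946). In that range 35.3% of probe sets changed with replicate number.

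Other members lay in ranges of signal where the median of replicate 3 was near that of replicates 1 and 2. *ARF12*, *IAA5* and *IAA1* have signals of 500 to 1000, where the median log2 difference of replicate 3 over all tested probe sets was -0.03 and 32.2% changed with replicate number. *ARF17*, *ARF9*, *ARF1*, *IAA2* and *IAA6* have signals of 200 to 500, where that median was 0.02 and 27.6% changed with replicate number. *IAA24* has a signal of 50 to 200, where the median was 0.01 and 18.6% changed. *ARF1*, *ARF9*, *ARF12*, *ARF17*, *IAA2*, *IAA5*, *IAA6* and *IAA24* passed with quantile normalization too.

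**Figure D4:**
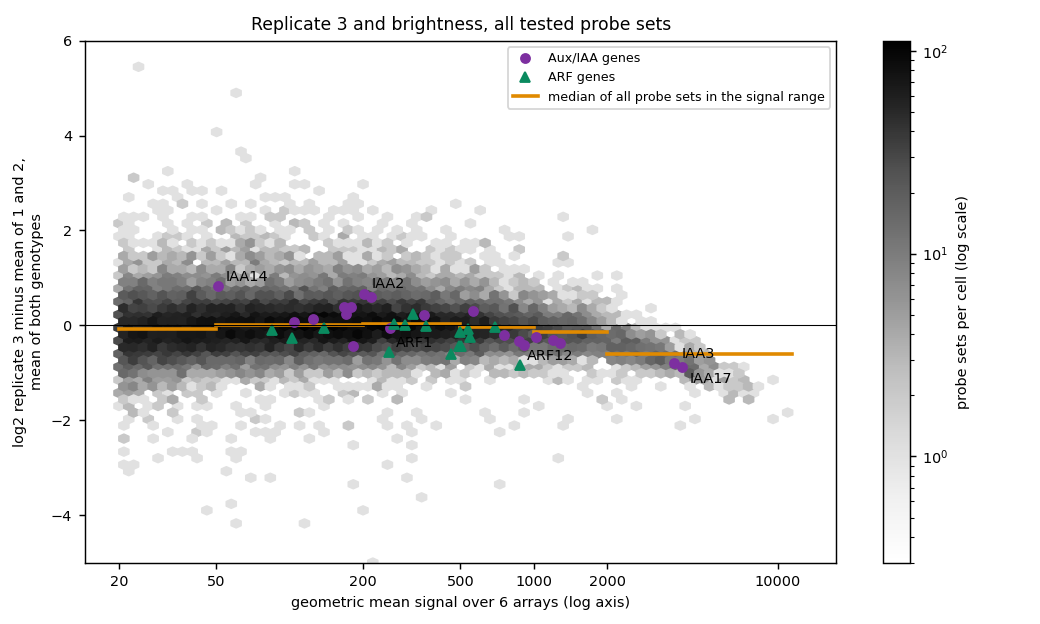
Log2 difference of replicate 3 from the mean of replicates 1 and 2, averaged over both genotypes, against the geometric mean signal (log axis) for all 25045 tested probe sets (grey cells), Aux/IAA genes (circles) and ARF genes (triangles), with the median of each signal range as a bar. The bar falls to -0.61 for signals of at least 2000, where *IAA3* and *IAA17* lie a little under it, while *ARF12* and *ARF1* lie below and *IAA2* and *IAA14* above the bar of their range.

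Circadian clock genes moved with replicate number too, all 7 of the 7 tested, beside 21.4% of all tested probe sets. *GI*, which peaks late in the day, had signals of 1703, 1476 and 154 in *crl1* and 1658, 1598 and 161 in WT, and *CCA1*, a morning gene, had 303, 187 and 1495 in *crl1* and 370, 201 and 1634 in WT. Both genes set replicate 3 apart from replicates 1 and 2 in both genotypes. The sources used here give no time of harvest for the replicates. The part of the clock and of the bright end of the arrays in the replicate differences of Aux/IAA and ARF genes was not tested.

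Other genes of families tied to auxin, taken by name alone, numbered 20 with a probe set, of which 16 were tested. A name in such a family does not show that a gene acts in the auxin pathway. None was called between genotypes in limma, where 0.204% of all tested probe sets were called higher and 0.447% lower in *crl1*. An unadjusted limma p under 0.05 was found for 3 of the 16, beside 9.76% of all tested probe sets. Of the 16, 7 had a positive and 9 a negative log2 fold change (median -0.06). The 2 tested corepressor genes of the TOPLESS type that Aux/IAA proteins recruit, *ASPR2* and *TPR3*, had log2 fold changes of -0.10 and 0.08. No receptor gene of the TIR1/AFB family was matched by name.

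Some GH3 enzymes attach amino acids to auxin and so lower its free level. The GH3 genes here were taken by name alone, and not all of them need act on auxin. Of 8 tested GH3 genes, 5 had a positive and 3 a negative log2 fold change. *GH3.1* had signals of 194.2, 163.7 and 117.3 in *crl1*, against 227.9, 279.6 and 124.3 in WT (log2 fold change -0.36 ± 0.15, SE, limma adjusted p = 0.476). *GH3.2* had signals of 243.6, 148.4 and 257.6 in *crl1*, against 188.5, 126.8 and 212.8 in WT (log2 fold change 0.29 ± 0.11, SE, limma adjusted p = 0.444). These GH3 genes lay on opposite sides of 0, each in the same direction in all 3 replicates.

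Auxin transport, auxin synthesis and the SAUR and LOB-domain (LBD) families gave few measured genes. *PIN2*, an auxin efflux carrier of root tips, had signals of 16.4, 30.7 and 19.5 in *crl1*, against 27.3, 42.4 and 36.0 in WT (log2 fold change -0.70 ± 0.27, SE, limma adjusted p = 0.437). It is close to the signal minimum and was lower in *crl1* in each replicate, with overlap between genotypes. The other tested transport genes were *PIN3a*, with a log2 fold change of 0.25 ± 0.13 (SE, limma adjusted p = 0.579) and *crl1* above WT in all 3 replicates, and *PIN5a*, with -0.25 ± 0.21. *FIB*, an enzyme of auxin synthesis, had a log2 fold change of -0.28 ± 0.13 (SE, limma adjusted p = 0.512), *SAUR39* one of -0.19 ± 0.27 and *LBD6* one of -0.31 ± 0.16. Replicate number changed 6 of the 16 other auxin genes, beside 21.4% of all tested probe sets.

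Markers of the tissues in a stem base were measured beside these genes. Of the shoot meristem and stem list, 3 of 5 genes were tested, and their summed signal with the untested genes was 1542 to 2130 in *crl1* and 1418 to 1892 in WT. The meristem gene *OSH1* had signals of 1223, 1003 and 774 in *crl1*, against 963, 882 and 633 in WT. Of the untested genes of that list, *OSH43* had signals of 10.1, 24.0 and 19.7 in *crl1*, against 2.1, 2.7 and 2.6 in WT. In *WOX4*, also untested, the genotypes overlapped. On the log2 scale the 3 tested genes of the list had fold changes of 0.27 ± 0.09 for *OSH1*, 0.24 ± 0.11 for *OSH6* and -0.18 ± 0.09 for *HOS9* (SE), each in the same direction in all 3 replicates and none passing the adjusted threshold in limma. For the crown root and root meristem list (4 of 5 tested) the summed signal was 355 to 432 in *crl1* and 336 to 386 in WT, and for the root list (2 genes, both dim) 59.3 to 105 in *crl1* and 58.3 to 153 in WT. For the green leaf list (3 of 4 tested) it was 5993 to 10094 in *crl1* and 6594 to 10073 in WT, and *rca*, the activase of the carbon-fixing enzyme, was the gene of these lists called between genotypes, lower in *crl1* (log2 fold change -0.55 ± 0.10, SE, limma adjusted p = 0.0429). The other tested green leaf genes had log2 fold changes of -0.24 ± 0.10 for *RBCS* and 0.07 ± 0.09 for *CAB2R* (SE), which is the brightest of that list. Of the crown root and root meristem list, *WOX11*, which acts in crown root emergence, had a log2 fold change of 0.71 ± 0.15 (SE, unadjusted limma p of 0.001, adjusted p = 0.0867). Every *crl1* array of *WOX11* lay above every WT array, with ratios of 2.03, 1.41 and 1.54. *CRL4* had 0.12 ± 0.27, *SCR1* -0.09 ± 0.17 and *SHR1* -0.14 ± 0.14 (median of the list 0.01). *QHB*, below the signal minimum, had signals of 12.3, 18.5 and 10.9 in *crl1*, against 24.4, 17.4 and 19.2 in WT. The part of tissue makeup in the values of the Aux/IAA and ARF genes was not tested.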

How the data were processed

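RNA of 3 *crl1* and 3 WT pools was hybridised to GeneChip Rice Genome Arrays. For each probe set the authors deposited a linear intensity, the MAS5 signal, computed in Affymetrix Expression Console with global scaling to a target of 100. Program versions: not given in the sources used here. Of 57381 probe sets, 187 are controls and were left out. The platform's probe table, whose annotation can be old, pairs 22436 probe sets with 1 gene and 95 with several. Names and neighbours came from a reference rice annotation (assembly ASM3414082v1). A gene with several of these names is called here by the one that no other gene holds or had been given. The names not used include ARF16 for *ARF1*, ARF1 for *ARF23*, ARF2 for *ARF4* and IAA1 for *IAA13*.

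Signals were used on the log2 scale, without a pseudocount. Probe sets with a geometric mean of at least 20 were fitted by genotype and replicate number (a block) with limma 3.58.1 under R 4.3.3, files being read with data.table (version 1.17.8), and the empirical Bayes step followed the trend of variance with signal, at 7.33 prior degrees of freedom. Benjamini-Hochberg adjustment covered all 25045 probe sets, and an adjusted p under 0.05 was called. Over these the fold changes had a median of 0.00344 on the log2 scale. A moderated F-test gave the replicate number. The block follows the study's comparison within each biological replicate, and deviations of same-numbered arrays of both genotypes correlated at 0.39, 0.451 and 0.747, those of differently numbered arrays at 0.232 or less. The limma test was checked on simulated data of the same design, with noise set by the variance trend. Between genotypes it called 39 of 100 probe sets with a log2 change of 0.5 and 86 of 100 with a change of 1. The simulated noise lay on the trend for every probe set, without the spread around it that the real probe sets have. These shares can therefore be higher than those of the real data. The study's Present call and change p need probe-level data and were not used; its ratio limits were. The number of arrays limits the precision. Nothing in the labels says which arrays were processed together.

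Members named with values per array were those the study's text discusses, those with an unadjusted p under 0.05, the 3 of each family with the smallest p for replicate number, the 3 of each family with the highest signal, and probe sets that disagree; others were named after their values were seen. Members, gene lists, tests and this rule were chosen with earlier results of these data known. The alternatives tried left out the block, the trend, the signal minimum, each replicate or the probe sets that may cross-hybridise, raised the minimum to 50, added a pseudocount of 16, rescaled arrays by quantiles or by their median, or averaged over a gene's probe sets. Figures and tables were made with Python 3.11.15, pandas 2.3.3, numpy 2.4.6, scipy 1.17.1 and matplotlib 3.10.9.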

Additional observations from a re-analysis of the deposited data

How the results depend on the processing

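The count of Aux/IAA, ARF and other auxin genes called between *crl1* and WT was 0 under every alternative, including no replicate block, and no member passed the 2-fold ratio in all 3 or all 9 pairs. Without the replicate block, 0 Aux/IAA and 0 ARF genes had an unadjusted limma p under 0.05, and the medians stayed at 0.01 and -0.05. The count of Aux/IAA genes changed with replicate number, 8, became 5 with no signal minimum, 4 with quantile normalization and 2 without the trend, and ranged between 1 and 11 when a replicate was left out. The count of ARF genes, 4, became 0 without the trend and ranged between 0 and 6, with 0 without replicate 3. The median log2 fold change of the Aux/IAA genes, 0.01, became 0.0237 with no signal minimum, -0.0148 with quantile normalization, 0.0169 with median centring and 0.00139 without probe sets that may cross-hybridise, and ranged between -0.0187 and 0.00393 when a replicate was left out. Fold changes of single genes under the alternatives were followed for 19 of the tested genes, those named by rule or changed with replicate number. Of these 227 values, 8 changed sign, in *ARF17*, *IAA3*, *IAA6*, *IAA14*, *IAA17* and *IAA30*, and 0 passed the threshold. The cause of these shifts was not tested. The 7 members below a mean signal of 20 were not tested.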
